A study of Mus musculus with 6 samples.

Results

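Microglia, the resident macrophages of the brain, and the complement protein C1q that they make were followed here through 10 genes. The 10 genes were *C1qa*, *C1qb*, *C1qc*, *Cx3cr1*, *Aif1*, *Csf1r*, *Trem2*, *Tyrobp*, *P2ry12* and *Tmem119*, and every probe set that lists one of these symbols was taken, which gave 16 of the 45077 probe sets on the array. Each probe set combines several short probes against the same transcript, and 4 of the 10 genes had several. Counted by symbol, the 10 genes stood among 22527 on the array. All 3 groups consisted of male mice, given as 16 weeks old, that were housed individually, dosed by mouth and put through a behavioral test. The methods give this age ahead of acclimatization, dosing and testing. The cortex was therefore taken at a later age, which is not stated. SAMR1 + Water mice, of a senescence-resistant strain, and SAMP8 + Water mice, of the senescence-accelerated strain SAMP8, received water for 30 days and during 8 further days of testing. SAMP8 + STEE mice received sugarcane top ethanolic extract at 20 mg/kg over the same time. According to the methods the drinking water of the mice also carried BrdU, a label of dividing cells, for part of this time. SAMR1 and SAMP8 are separate inbred strains, so a difference between them is one of whole genetic backgrounds and belongs to no single allele.

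RNA from the cerebral cortex of 2 mice in each group was measured on Affymetrix mouse expression array strips. The authors deposited the mean log2 signal of each group, rounded to 2 decimals, and no value of a single mouse entered the calculations. The values below are therefore the authors' means, without a spread between mice, and no difference was tested here. The small number of arrays limits their precision. Differences between means are given on the log2 scale and carry a rounding error of at most 0.01. Instead of replicate error, 2 measures of scatter are given beside them. The former is the central 90% of the differences of all probe sets whose mean signal lay within 0.5 log2 of the probe set in question. The latter is how far the 2 brightest probe sets of the same gene disagreed. Only probe sets with a mean signal of at least 5 entered it, which left 4228 genes. Its median was 0.1 log2 between SAMP8 + Water and SAMR1 + Water and 0.06 log2 between SAMP8 + STEE and SAMP8 + Water. Dimmer probe sets are not covered by it. In cortex, which holds many cell types, fewer microglia and less RNA in each microglial cell cannot be told apart.

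Microglia depend on CSF1R, the receptor of CSF1 and IL-34, for survival. They sense neurons through the fractalkine receptor CX3CR1 and sense nucleotides through P2RY12, and they take up lipids and debris with the help of TREM2, which signals through the adaptor TYROBP. C1q is the recognition molecule of the classical complement pathway. It is assembled from A, B and C chains encoded by *C1qa*, *C1qb* and *C1qc*, neighbouring genes, and in brain it is made mainly by microglia and is known for tagging synapses for removal.

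The 10 genes went both ways, and none differed by more than 0.27 log2 between any pair of groups at its brightest probe set. Their median difference between SAMP8 + Water and SAMR1 + Water was 0.035 log2, with single genes from -0.21 to 0.19, against a median of 0 over all genes. Between SAMP8 + STEE and SAMP8 + Water the median of the 10 genes was 0.01 log2, with single genes from -0.07 to 0.12, again against a median of 0 over all genes. Regardless of sign, the median difference of the 10 genes was 0.095 log2 between the strains, where that of all genes was 0.07, and 0.04 log2 with STEE, where that of all genes was 0.06. Between SAMP8 + STEE and SAMR1 + Water it was 0.11 log2, where that of all genes was 0.08. A gene with several probe sets is represented in these medians by its brightest probe set, the one of highest signal averaged over the groups.

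The upstream sequences of *C1qb*, *C1qc* and *Aif1* are shown because these 3 genes had the highest values of the 10 in SAMP8 + STEE relative to SAMR1 + Water. They are RefSeq sequences of build GRCm38.p6 from the reference strain C57BL/6J and run from 250 bases before to 50 bases after the annotated start, on the strand of the gene. Capitals mark GAGGAA or its reverse complement TTCCTC, a core that the myeloid factor PU.1 is known to bind.
*C1qb*, chr4:136886151-136886450, minus strand: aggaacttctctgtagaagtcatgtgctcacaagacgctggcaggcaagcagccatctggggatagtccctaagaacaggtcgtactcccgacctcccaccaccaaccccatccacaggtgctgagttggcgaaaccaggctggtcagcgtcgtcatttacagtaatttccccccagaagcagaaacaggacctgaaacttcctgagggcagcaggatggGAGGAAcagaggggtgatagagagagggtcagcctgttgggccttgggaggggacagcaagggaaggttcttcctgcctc
*C1qc*, chr4:136892865-136893164, minus strand: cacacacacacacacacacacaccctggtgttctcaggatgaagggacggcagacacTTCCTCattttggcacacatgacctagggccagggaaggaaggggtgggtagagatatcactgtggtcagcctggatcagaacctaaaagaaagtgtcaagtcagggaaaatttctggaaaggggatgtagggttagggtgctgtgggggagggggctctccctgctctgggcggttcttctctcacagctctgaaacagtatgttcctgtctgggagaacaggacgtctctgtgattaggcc
*Aif1*, chr17:35176003-35176302, minus strand: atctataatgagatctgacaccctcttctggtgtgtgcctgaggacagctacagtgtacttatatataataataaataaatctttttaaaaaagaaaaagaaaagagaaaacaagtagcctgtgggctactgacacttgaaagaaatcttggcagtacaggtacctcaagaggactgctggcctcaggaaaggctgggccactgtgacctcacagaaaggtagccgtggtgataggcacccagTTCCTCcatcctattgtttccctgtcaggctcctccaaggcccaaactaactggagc

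The motif began 30 bases before the start of *C1qb*, 193 bases before that of *C1qc* and 7 bases before that of *Aif1*. Of the 6 genes whose upstream sequence was read, *C1qb*, *C1qc*, *Aif1* and *Trem2* held it, and *Cx3cr1* and *P2ry12* did not. The remaining genes, *Csf1r* among them, were not read, so the tally covers only these 6. Over all 32851 upstream sequences of this length in the RefSeq set used, 28.3% held it on either strand. These matches describe the letters only.

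**Figure D1:**
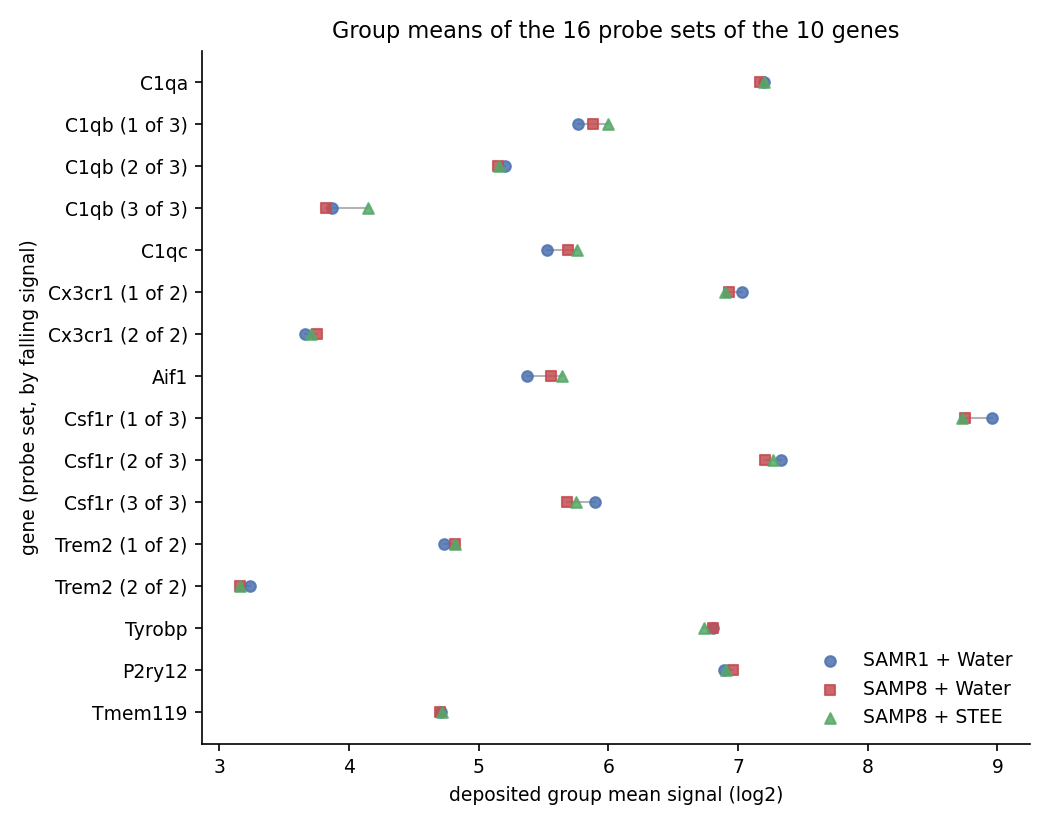
Deposited group mean signal (log2, horizontal axis) of the 16 probe sets of the 10 genes, with circles for SAMR1 + Water, squares for SAMP8 + Water and triangles for SAMP8 + STEE; each point is the authors' mean of 2 mice and carries no error bar. The 3 means of a probe set lay at most 0.33 log2 apart, and horizontal positions of different probe sets are not comparable as amounts of RNA.

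Among the C1q chains, *C1qa* showed the same level in all groups, and *C1qc* and the brightest of the 3 *C1qb* probe sets were lowest in SAMR1 + Water and highest in SAMP8 + STEE. *C1qa*, the A chain, had a mean log2 signal of 7.20 in SAMR1 + Water, 7.17 in SAMP8 + Water and 7.20 in SAMP8 + STEE, a range of 0.03. *C1qc*, the C chain, had 5.53, 5.69 and 5.76 in the same order. Its mean was thus 0.16 log2 higher in SAMP8 + Water than in SAMR1 + Water and a further 0.07 higher with STEE. Both steps lay inside the central 90% of probe sets of like signal, which spanned -0.30 to 0.32 between the strains and -0.18 to 0.22 with STEE.

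*C1qb*, the B chain, was read by 3 probe sets that did not show the same pattern. At the brightest, the mean log2 signal was 5.77 in SAMR1 + Water, 5.88 in SAMP8 + Water and 6.0 in SAMP8 + STEE. The next had 5.20, 5.15 and 5.16, and its range of 0.05 was no larger than the typical gap between probe sets of one gene. The dimmest had 3.87, 3.82 and 4.15, with SAMP8 + STEE apart from the other groups. Its difference of 0.33 log2 between SAMP8 + STEE and SAMP8 + Water, a 1.26-fold higher signal, was the largest of the 16 probe sets in that comparison and lay outside the central 90% of -0.18 to 0.17. Only 0.790% of the 9490 probe sets of like signal lay as far from 0. The mean signal of this dimmest probe set was low, however, at 3.95. The identifiers of this probe set and of the middle one carry the mark for probes that may also bind unrelated transcripts. All 3 *C1qb* probe sets were higher with STEE than in SAMP8 + Water, by 0.01 to 0.33 log2, and between SAMP8 + Water and SAMR1 + Water 2 were lower by 0.05 and 1 was higher by 0.11.

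Averaged over the 3 chains at their brightest probe sets, C1q was 0.08 log2 higher in SAMP8 + Water than in SAMR1 + Water and 0.0733 log2 higher in SAMP8 + STEE than in SAMP8 + Water. The former depended on how the *C1qb* probe sets were combined and was 0.0444 log2 with their mean and 0.0267 log2 with their median. The average of SAMP8 + STEE over SAMR1 + Water, which is the sum of both steps, was 0.153 log2.

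Of the receptors, *Csf1r* had the lowest values relative to SAMR1 + Water, and *P2ry12*, *Cx3cr1* and *Trem2* differed less. *Csf1r* encodes the growth factor receptor that microglia need to survive. Its brightest probe set had a mean log2 signal of 8.96 in SAMR1 + Water, 8.75 in SAMP8 + Water and 8.73 in SAMP8 + STEE. The second had 7.33, 7.21 and 7.27, and the dimmest had 5.90, 5.68 and 5.75. SAMR1 + Water was the highest group at each of the 3 probe sets. SAMP8 + Water was lower by 0.21, 0.12 and 0.22 log2, which is a fold of 0.865, 0.920 and 0.859. The difference at the brightest probe set lay just outside the central 90% of -0.19 to 0.28, and 13.8% of the 1679 probe sets of like signal were at least as far from 0. The other 2 probe sets lay inside their ranges. STEE moved *Csf1r* by -0.02, 0.06 and 0.07 log2 relative to SAMP8 + Water, within the range of probe sets of like signal.

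*Cx3cr1*, the fractalkine receptor, had a mean log2 signal of 7.03 in SAMR1 + Water, 6.93 in SAMP8 + Water and 6.90 in SAMP8 + STEE at its brighter probe set. At the dimmer one it had 3.66, 3.75 and 3.71, so the direction between the strains depended on the probe set. *P2ry12*, the nucleotide receptor typical of resting microglia, had 6.89, 6.96 and 6.91, a range of 0.07 log2. *Trem2*, the lipid and debris receptor, had 4.73 in SAMR1 + Water and 4.82 in both SAMP8 groups at its brighter probe set. At the dimmer probe set, with 3.24, 3.16 and 3.16, the strains stood the other way round. Neither *Trem2* probe set differed between SAMP8 + STEE and SAMP8 + Water to 2 decimals.

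*Tyrobp*, the signalling adaptor of TREM2, had a mean log2 signal of 6.81 in SAMR1 + Water and in SAMP8 + Water and of 6.74 in SAMP8 + STEE. Its difference of -0.07 log2 with STEE was the lowest of the 10 genes, and 50.7% of the probe sets of like signal lay at least as far from 0. *Tmem119*, a membrane protein used as a marker that separates microglia from other macrophages, had 4.71, 4.70 and 4.72, the smallest range of the 16 probe sets. *Aif1*, which encodes the actin-binding protein IBA1 used to stain microglia, had 5.37 in SAMR1 + Water, 5.56 in SAMP8 + Water and 5.64 in SAMP8 + STEE. The SAMP8 + Water mean was 0.19 log2 higher than SAMR1 + Water, a 1.14-fold signal, and 27.2% of probe sets of like signal were at least as far from 0. The further step with STEE was 0.08 log2. *Aif1*, like *C1qc*, had a single probe set, so no other probe set of these genes could be set beside it. The identifier of the *Aif1* probe set carries a mark of the kind counted here as less specific.

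**Figure D2:**
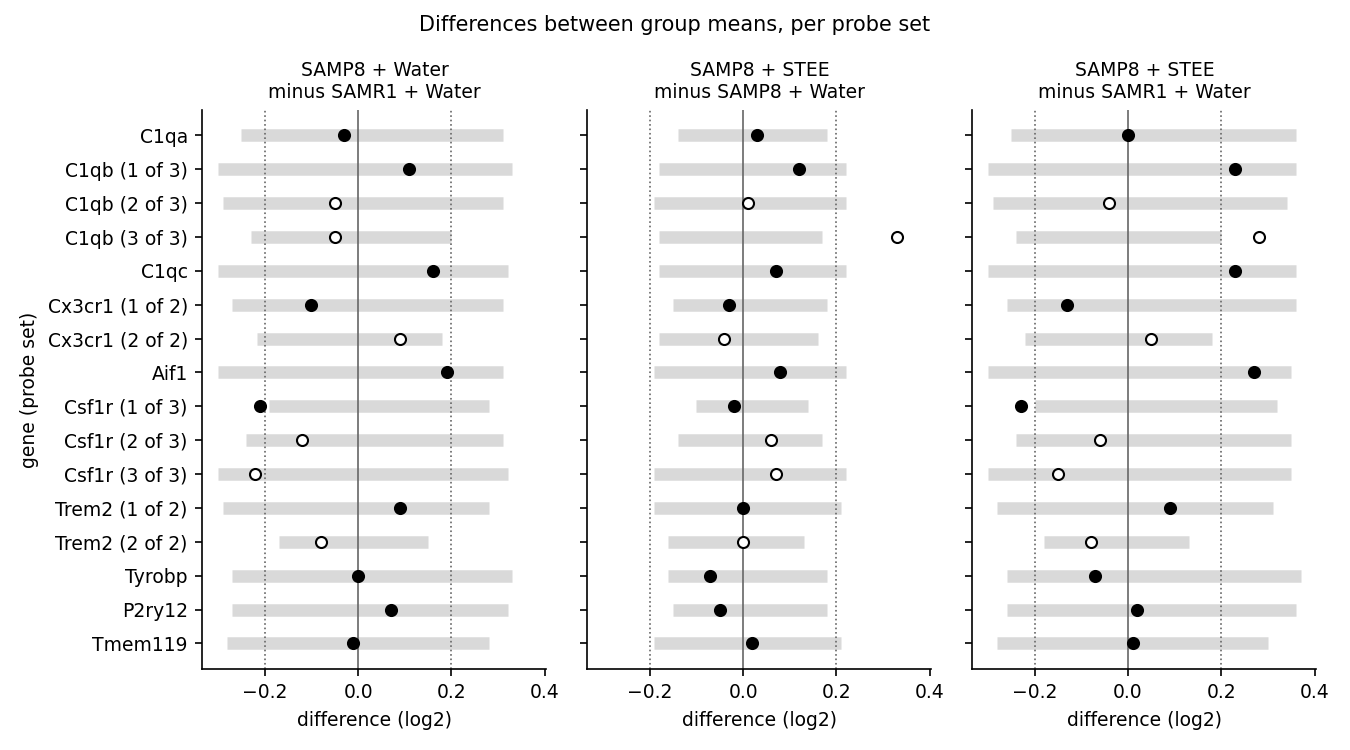
Differences between group means (log2, horizontal axis) for the 16 probe sets in the 3 comparisons; filled points are the brightest probe set of a gene, open points its other probe sets, grey bars the central 90% of all probe sets within 0.5 log2 of its signal, and dotted lines mark 0.2 log2. Points outside their bar were the brightest *Csf1r* probe set on the left and on the right and the dimmest *C1qb* probe set in the middle and on the right.

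As a rule of size, a difference of at least 0.2 log2, a 1.15-fold signal, was counted. Between SAMP8 + Water and SAMR1 + Water 1 of the 10 genes, *Csf1r*, lay that far below and none above, where 6.14% of all genes lay below and 6.44% above. Over probe sets, 2 of 16 passed in either direction, both of *Csf1r*, beside 13.7% of all probe sets. *Aif1*, at 0.19, was just short of the rule and *Csf1r*, at -0.21, just past it. Between SAMP8 + STEE and SAMP8 + Water none of the 10 genes passed, where 3.05% of all genes lay above and 2.67% below, and the single probe set that passed was the dimmest of *C1qb*, beside 6.07% of all probe sets. These shares are close to those of the whole array.

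The comparison of SAMP8 + STEE with SAMR1 + Water adds both steps and shares its groups with them, so it is no separate evidence. In it 3 of the 10 genes, *C1qb*, *C1qc* and *Aif1*, lay at least 0.2 log2 above SAMR1 + Water, with 8.18% of all genes, and *Csf1r* lay below, with 6.01% of all genes. Their differences were 0.23, 0.23, 0.27 and -0.23 log2. Over probe sets 5 of 16 passed, 4 above and 1 below, where 15.1% of all probe sets did. The values of *C1qb*, *C1qc* and *Aif1* at these probe sets lay inside the central 90% of probe sets of like signal, whose upper ends were 0.36, 0.36 and 0.35.

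**Figure D3:**
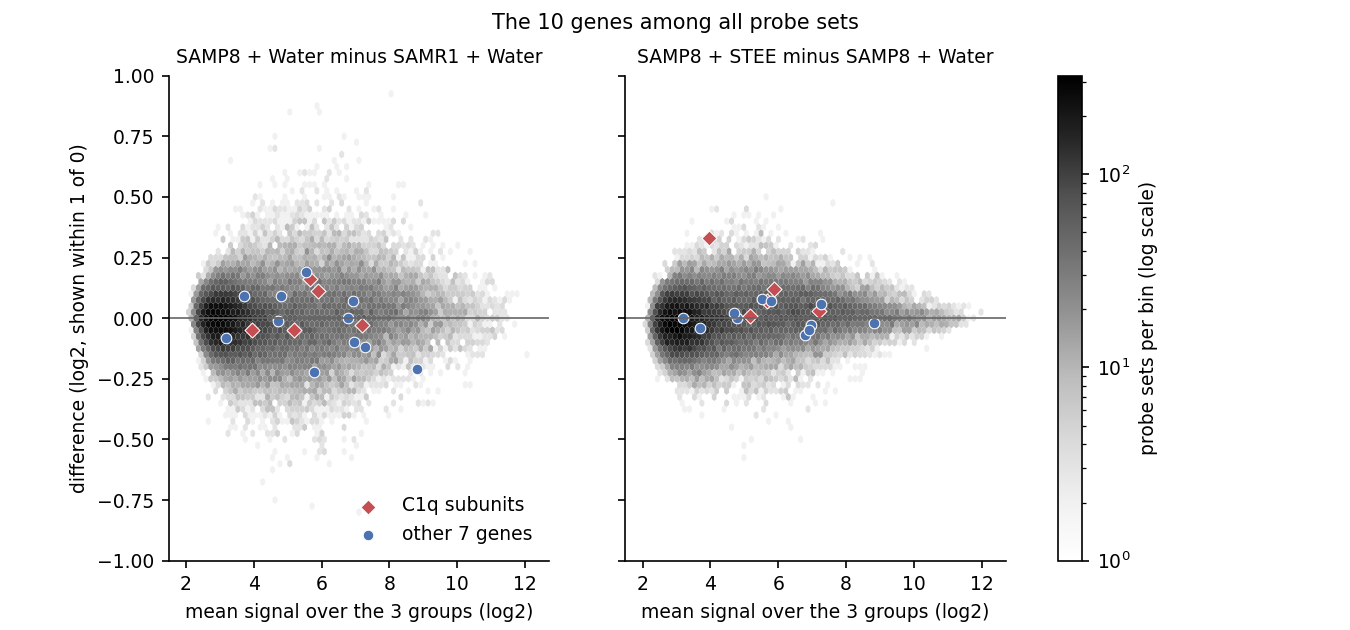
Difference (log2, vertical axis) against mean signal over the 3 groups (log2, horizontal axis) for all probe sets, binned in grey on a log colour scale, with the 16 probe sets of the 10 genes on top (diamonds for C1q chains, circles for the other 7 genes). Probe sets more than 1 log2 from 0, 122 on the left and 10 on the right, lie off the plot; the points of the 10 genes lay within the dense part of the cloud, apart from the *C1qb* probe set at 0.33 on the right and the *Csf1r* probe set at -0.21 at the lower edge on the left.

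Other genes typical of microglia were described from lists drawn up by function. The counts in each list are to be read beside the shares of all genes, 6.44% higher and 6.14% lower between the strains and 3.05% higher and 2.67% lower with STEE. Of 20 further genes of resting microglia, found for all 20 with *Spi1* under its older symbol Sfpi1, 2 lay at least 0.2 log2 lower and 1 higher in SAMP8 + Water than in SAMR1 + Water, and the median was 0.015 log2. None passed in either direction with STEE. Of the 20, 9 had a mean signal under 5. *Selplg*, a selectin ligand, had a mean log2 signal of 6.29 in SAMR1 + Water, 6.0 in SAMP8 + Water and 6.11 in SAMP8 + STEE. *Ly86*, a partner of a Toll-like receptor relative, went the other way with 6.29, 6.57 and 6.54. With STEE the largest difference upward was that of *Gpr34*, a lysophospholipid receptor, at 0.16 log2, and the largest downward that of *Ctss*, the protease cathepsin S, at -0.11 log2, among genes of a mean signal of at least 5.

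Of 16 genes that microglia are known to switch on in disease models, 15 were found and *Cd63* was not matched. A mean signal under 5 was found for 9 of the 15, so the counts say little about these. None of the 15 passed 0.2 log2 between the strains at its brightest probe set, where the median was 0.01 log2, and with STEE 1 passed, with a median of -0.03 log2. That gene was *Spp1*, which encodes osteopontin, with a mean log2 signal of 5.07 in SAMR1 + Water, 4.90 in SAMP8 + Water and 4.67 in SAMP8 + STEE. *Ctsz*, the lysosomal protease cathepsin Z, had 7.06, 7.25 and 7.36 at its brightest probe set, the highest difference of the list in both comparisons among genes of a mean signal of at least 5. Its 3 probe sets differed by 0.08 to 0.30 log2 between the strains and by -0.04 to 0.22 with STEE. *Ctsb*, the protease cathepsin B, differed between the strains by 0.07 log2 at the brightest of its 5 probe sets, and by 0.40, 0.16, 0.08 and -0.20 log2 at the others in falling order of signal, so whether it passed depended on the probe set. *Axl*, a receptor involved in clearing dying cells, was 0.16 log2 lower in SAMP8 + Water than in SAMR1 + Water at its brighter probe set and 0.04 higher at the other, and *Cd9*, a tetraspanin, was 0.08 log2 lower with STEE.

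The rest of the complement system was represented by 20 genes. A mean signal under 5 was found for 13 of them, *Cfd*, *C1s* and *Serping1* included. Between SAMP8 + Water and SAMR1 + Water 3 lay at least 0.2 log2 lower, *C4b* and *Cfd* among them, and 1 higher, *C1s*, and the list's median was 0.025 log2. *C4b*, the component that C1q's proteases cleave next, had a mean log2 signal of 6.77 in SAMR1 + Water, 6.16 in SAMP8 + Water and 6.05 in SAMP8 + STEE. It was thus 0.61 log2 lower in SAMP8 + Water, a fold of 0.655, and 1.80% of probe sets of like signal lay at least as far from 0. This probe set is also assigned to a second locus, so the 2 transcripts cannot be told apart. With STEE 1 of the 20 passed, *Serping1*, the inhibitor of the C1 proteases, with 3.95, 3.98 and 3.66, and the list's median was -0.035 log2. *Cr1l*, a complement regulator on cell membranes, was 0.17 log2 higher in SAMP8 + Water than in SAMR1 + Water and 0.11 log2 lower with STEE at its brightest probe set, and its 3 probe sets ranged from -0.18 to 0.17 between the strains.

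**Figure D4:**
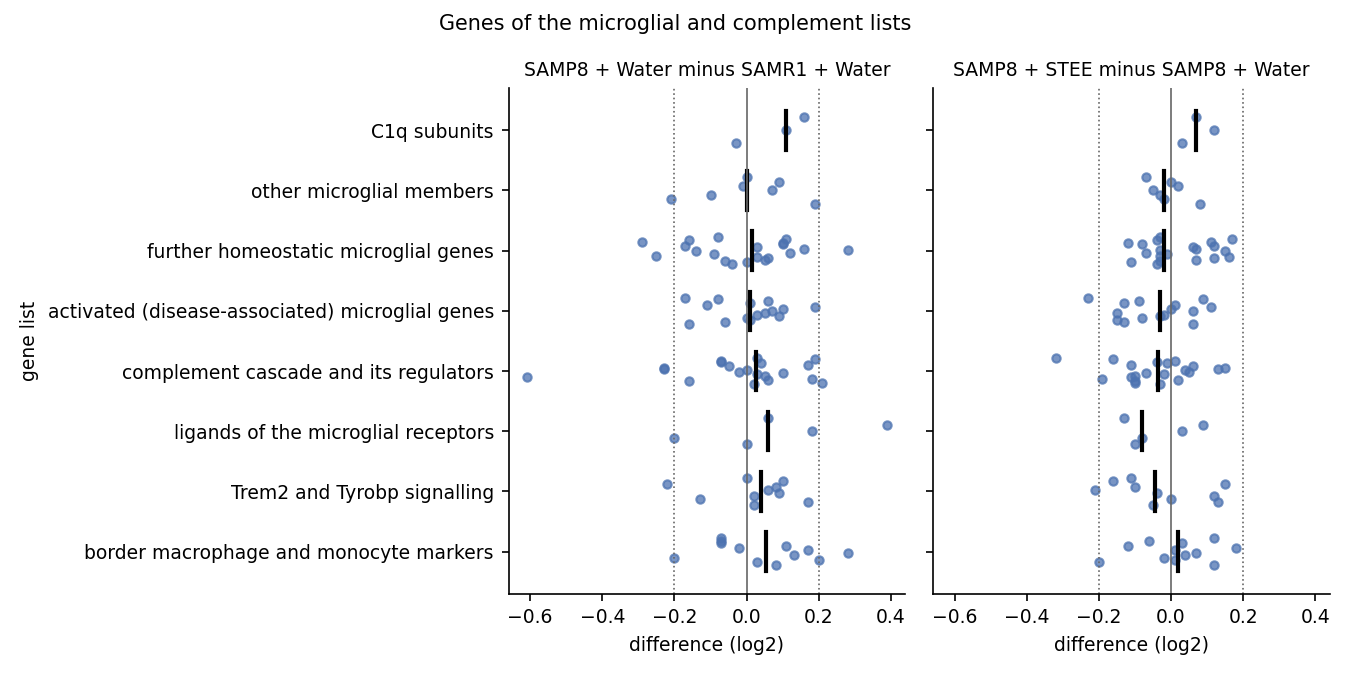
Differences between group means (log2, horizontal axis) of the genes in 8 lists, each point a gene at its brightest probe set, black bars the list's median and dotted lines 0.2 log2. The medians lay from 0 to 0.11 log2 on the left and from -0.08 to 0.07 log2 on the right, and *C4b* at -0.61 and *Il34* at 0.39 stood farthest from 0 on the left.

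Of 5 ligands of the microglial receptors, *Il34* was higher and *Csf1* lower in SAMP8 + Water than in SAMR1 + Water by at least 0.2 log2, and the median of the list was 0.06 log2. Both proteins bind CSF1R, and IL-34 is the neuronal one in cortex. *Il34* had a mean log2 signal of 5.05 in SAMR1 + Water, 5.44 in SAMP8 + Water and 5.53 in SAMP8 + STEE, a 1.31-fold signal between the strains, and 5.45% of probe sets of like signal were at least as far from 0. *Csf1* had 5.98, 5.78 and 5.70 at the brightest of its 4 probe sets, and the other 3 differed between the strains by -0.06, -0.02 and 0.02 log2. No ligand passed with STEE, where the median was -0.08 log2 and *Apoe*, a lipid carrier bound by TREM2, had the lowest value of those with a mean signal of at least 5, at -0.10 log2.

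Of 10 genes that act downstream of TREM2 and TYROBP, 1 was at least 0.2 log2 lower in SAMP8 + Water than in SAMR1 + Water, and the median was 0.04 log2. It was the phosphatase gene *Ptpn6*, with 4.54, 4.32 and 4.47 in the usual order at its brighter probe set. The 2 probe sets of *Ptpn6* differed between the strains by -0.22 and -0.07 log2. With STEE 1 of the 10 genes was that far lower, and the median was -0.045 log2. This was *Pik3ap1*, an adaptor of PI3-kinase, with 4.63, 4.69 and 4.48 at its brighter probe set. The 2 probe sets of *Pik3ap1* differed with STEE by -0.21 and -0.01 log2. *Grb2*, a widely expressed adaptor and the only gene of this list with a mean signal of at least 5, was 0.17 log2 higher in SAMP8 + Water than in SAMR1 + Water and 0.13 log2 higher with STEE at its brighter probe set, and -0.09 and -0.01 at the other.

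Markers of border macrophages and monocytes, which share part of the microglial programme, gave a mean signal under 5 for 11 of 12 genes. Between SAMP8 + Water and SAMR1 + Water 2 were at least 0.2 log2 higher and 1 lower, with a median of 0.055 log2, and with STEE 1 was lower, with a median of 0.02 log2. The exception in signal was the probe set of *Ly6c2*, with 8.03, 8.31 and 8.38, which is also assigned to *Ly6c1*, a gene known from brain endothelium. *Cd163* had 2.74, 2.94 and 2.95, *Cd74* had 4.89, 4.69 and 4.67, and *Ccr2*, the monocyte chemokine receptor, had 4.60, 4.63 and 4.43 at the brightest of its 4 probe sets.

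Markers of other cells in the cortex were present, and some differed between the strains beside the microglial genes. Of 5 oligodendrocyte markers 4 were at least 0.2 log2 lower in SAMP8 + Water than in SAMR1 + Water, with a median of -0.34 log2, where 6.14% of all genes were that far lower. Their summed log2 signal was 46.56 in SAMR1 + Water, 44.82 in SAMP8 + Water and 44.88 in SAMP8 + STEE. At the brightest probe sets, *Mog* differed between the strains by -0.63, *Mobp* by -0.39, *Cnp* by -0.34 and *Mag* by -0.31. The 5 probe sets of *Mobp* ranged from -0.39 to -0.03 log2 between the strains and the 3 of *Cnp* from -0.40 to -0.21. *Ttr*, the transthyretin gene of choroid plexus, was 10.20, 8.24 and 9.33. The median of the 5 choroid plexus markers was -0.13 log2 between the strains and 0.01 log2 with STEE, and 3 of them had a mean signal under 5. The probe sets of *Clic6* ranged from -0.44 to -0.18 log2 between the strains and from 0.01 to 0.27 with STEE. Those of *Kl* ranged from -0.34 to 0.02 and from 0 to 0.09. *Folr1* differed by -0.04 and -0.09 log2 and *Aqp1* by -0.13 and 0.01. Medians between the strains were 0.05 log2 for 5 neuron markers, with *Snap25* at 0.16 at its brighter and -0.15 at its other probe set and *Gad1* at 0.24 and 0.65 at its 2 probe sets, and -0.10 log2 for 5 astrocyte markers, with *Aqp4* at -0.10 and *Gja1* at -0.20 at the brightest of 6 probe sets that ranged up to 0.61. They were -0.01 log2 for 5 endothelial markers, with *Cldn5* at -0.28, and 0.01 log2 for the blood markers, with *Hba-a1* at 0.01. With STEE the medians were 0.04, 0.04, -0.01, 0.07 and 0.01 log2 for neuron, astrocyte, oligodendrocyte, endothelial and blood markers, and the endothelial gene *Tek* was lower by 0.22. The mean signal of *Tek* was low, at 3.59, and 3 of the 5 endothelial markers had a mean signal under 5. The part of these cell types in the values of *Csf1r* and *C4b* was not tested.

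Many genes lay close to the average of the C1q chains, although the chains differed from each other. Between the strains and with STEE, *C1qa* differed by -0.03 and 0.03 log2 and *C1qc* by 0.16 and 0.07. *C1qb* differed by 0.11 and 0.12 log2 at its brightest probe set, so the average is the pattern of no single chain. Over the 2 differences that 3 group means allow, the genes closest to the average of the chains among 7909 with a mean signal of at least 6 were *Nolc1*, *Herc3*, *Mfsd5*, *Palm2* and *Psmc1*, with distances from 0.0033 to 0.0067 log2. *Nolc1* had a mean log2 signal of 6.29 in SAMR1 + Water, 6.37 in SAMP8 + Water and 6.44 in SAMP8 + STEE. Within 0.05 log2 of the average of the chains lay 509 genes.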

How the data were processed

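Cortical RNA of 6 male mice, 2 in each of 3 groups, was measured on array strips. Per the labels and the methods, the authors summarised the scans by RMA (Affymetrix Expression Console), and their group comparison came from Transcriptome Analysis Console. The deposited log2 values are averages over a group (named bi-weight averages), rounded to 2 decimals. The means of SAMP8 + Water were identical in both tables for every probe set. Each table also holds 3 columns of the authors' own comparison (linear fold change, ANOVA p-value and FDR p-value), which were left unused by choice, and no test, standard error or p-value is given.

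Groups were taken from the sample titles and matched to columns by name. Differences of means were computed with Python 3.11.15, pandas 2.3.3 and numpy 2.4.6 and plotted with matplotlib 3.10.9. A gene was any symbol of an entry, read at its probe set of highest mean signal. The counting was tested on simulated data. The members and lists were chosen with earlier results of these data known. Named genes are the members and the 5 genes closest to the average of the C1q chains. From each further list they include the largest differences in each direction at a mean signal of at least 5. They also include listed genes of at least 0.2 log2 in both comparisons. For each other cell type they include the leading marker and any marker of at least 0.2 log2. For *C1s*, *Cfd*, *Serping1*, *Spp1*, *Ptpn6*, *Pik3ap1*, *Ctsb*, *Cd163*, *Cd74* and *Ccr2*, which this rule does not name, the choice was made after their values were seen. Some genes that the rule names are not reported here. Alternatives changed the probe set rule, the centring, the filter on signal and the size threshold. Upstream sequences came from RefSeq, build GRCm38.p6. They were read for 6 of the 10 genes, and any entry of a member on the chromosome that carries *Csf1r* was left out.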

Additional observations from a re-analysis of the deposited data

How the results depend on the processing

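No paired analysis was possible because only group means were used, and for the same reason no analysis left out a mouse. The count of the 10 genes at least 0.2 log2 apart depended most on the rule. Between SAMP8 + Water and SAMR1 + Water it was 1, and became 0 when a gene's probe sets were averaged, 2 after centring on the median of all probe sets, 5 at 0.1 log2 and 0 at 0.3 log2. Between SAMP8 + STEE and SAMP8 + Water it was 0, and 1 at 0.1 log2. Between SAMP8 + STEE and SAMR1 + Water it was 4, and became 2 with the mean over probe sets, 2 after centring on probe sets with a mean signal of at least 6 and 0 at 0.3 log2. The cause was not tested beyond the construction of these rules. The average of the C1q chains between the strains, 0.08 log2, ranged from 0.0267 (median over probe sets) to 0.09 (centred on all probe sets), with STEE from 0.0533 to 0.0844 around 0.0733, and between SAMP8 + STEE and SAMR1 + Water from 0.1133 to 0.1633 around 0.1533. The median of the 10 genes had no stable sign: it ranged from -0.005 to 0.045 log2 between the strains, from -0.01 to 0.025 with STEE and from -0.025 to 0.025 between SAMP8 + STEE and SAMR1 + Water. Of the values of single genes 159 moved by less than the median absolute difference of all probe sets and 15 by more, those of *C1qb*, *Cx3cr1*, *Trem2* and *Csf1r*, the genes with several probe sets. Between the strains *C1qb* became 0.0033 log2 with the mean and -0.05 with the median over its probe sets, and *Trem2* became -0.08 without its less specific probe set. No value of at least 0.2 log2 changed sign. Signal on the array limits *Trem2* and *Tmem119*, whose mean signal was under 5. Without them 8 genes were left. The dimmest *C1qb* probe set and the dimmer *Cx3cr1* probe set also had a mean signal under 5.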
